A study of Rattus norvegicus with 16 samples.

Results

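Krt7, Krt8, Krt18, Krt19, Krt20 and Krt23 are 6 keratin genes expressed in simple epithelia, and they were measured as mRNA in rat kidney cortex. They were taken by symbol from the gene name column of the deposited count table, which lists 32623 genes, of which 47 are keratins. RNA sequencing gave 16 libraries in 4 groups of 4, namely young and old females and young and old males of Rattus norvegicus. Age is given only as young or old. Every group carries the same genotype entry, Homo, which is not explained, and the entry for treatment says that there was none. The series title speaks of diabetic kidney disease and of the cGAS-STING pathway, but diabetes appears in no sample label. Whether each library came from its own animal is not stated, so p-values reflect the spread between libraries, part of which may be technical.

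Keratins form the intermediate filaments of epithelial cells. Each filament subunit is a pair of a type I chain and a type II chain, so the amounts of the 2 types are coupled at the protein level, and an unpaired chain is degraded. Krt8 (type II) and Krt18 (type I) are the founding pair of simple epithelia and are found along the healthy renal tubule, strongest in the collecting duct. Krt7 (type II) and Krt19 (type I) are typical of ducts, and in the kidney of the collecting duct and of the transitional epithelium that lines the renal pelvis. Krt20 (type I) is best known from the intestine and from the superficial cells of the transitional epithelium, and Krt23 is a type I keratin of epithelial tumours and injured liver. In mouse and human kidney, Krt8, Krt18, Krt19, Krt20 and Krt7 are used as markers of damaged tubules.

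The genes lie in the 2 keratin clusters of the rat genome. Krt7, Krt8 and Krt18 are on chromosome 7, and Krt19, Krt20 and Krt23 on chromosome 10. Krt18 is the one type I keratin in the type II cluster. In the RefSeq annotation of the GRCr8 assembly, no protein-coding gene lies between Krt8 and Krt18 or between Krt20 and Krt23, whereas 26 lie between Krt7 and Krt8 and 40 between Krt23 and Krt19. The 150 bases before the annotated start are printed for the 4 members with an entry in the RefSeq promoter table (GRCr8), because they show how the neighbouring pairs differ upstream. Krt7 and Krt19 are named only. Each is written 5′ to 3′ on the gene's strand, and capitals mark a match on either strand to 1 of 3 motifs. The TATA box was searched as TATAAA. The GC box was searched as GGGCGG. The AP-1 site was searched as TGANTCA, with N for any base.
Krt8, chr7:135010340-135010489, minus strand: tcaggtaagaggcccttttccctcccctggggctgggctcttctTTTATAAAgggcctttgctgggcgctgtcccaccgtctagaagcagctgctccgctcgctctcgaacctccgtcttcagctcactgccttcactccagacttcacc
Krt18, chr7:135036018-135036167, plus strand: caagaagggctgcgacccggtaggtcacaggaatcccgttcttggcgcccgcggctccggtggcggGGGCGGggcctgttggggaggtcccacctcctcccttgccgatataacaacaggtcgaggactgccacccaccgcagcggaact
Krt20, chr10:84890286-84890435, minus strand: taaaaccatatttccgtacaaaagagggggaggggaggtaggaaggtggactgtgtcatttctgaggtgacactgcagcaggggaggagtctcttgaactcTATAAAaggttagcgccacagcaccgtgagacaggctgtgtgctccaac
Krt23, chr10:84946930-84947079, minus strand: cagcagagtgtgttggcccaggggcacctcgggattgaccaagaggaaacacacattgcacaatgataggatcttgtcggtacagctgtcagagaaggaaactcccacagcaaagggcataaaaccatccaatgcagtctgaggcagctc

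The Krt8 window held TATAAA on one strand at 106 bases and on the other at 104 bases before the listed start, overlapping each other, and the listed start of Krt8 falls on an ATG. Krt20 held TATAAA at 49 bases, and Krt18 held GGGCGG at 84 bases. The Krt23 window held none of the 3 motifs, and no window held TGANTCA. Among all 33469 promoters of the table, windows of the same length held TATAAA in 8.0%, GGGCGG in 26.0% and TGANTCA in 3.69%. A match of letters is a description of the window and does not show that a factor binds there.

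Libraries held 10827485 to 35957516 counts, with the lowest and the highest total both among old males (replicates 4 and 2). Levels are given as CPM, counts scaled to a common library total, with TMM factors that correct for the makeup of each library. All differences come from edgeR's quasi-likelihood test over the 14390 genes that passed its filter on low counts. A gene passed at a Benjamini-Hochberg adjusted p under 0.05 over all of them. Krt7, Krt8, Krt18, Krt19 and Krt23 were tested. Krt20 was too low to be tested. Old males stood apart from the other groups on the first principal component, with replicate 4 farthest. The library identifiers start with DS in all young libraries, in old female replicates 3 and 4 and in old male replicate 4, and with OP in the other old libraries. The meaning of these letters is not given.

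In males, all 5 tested keratins were higher in the old than in the young, where 25.3% of all tested genes passed as higher and 24.6% as lower. Krt19 differed most, 10.5-fold, followed by Krt23 at 2.68-fold, Krt18 at 2.03-fold, Krt8 at 1.99-fold and Krt7 at 1.33-fold. In females none of the 5 passed the test between old and young, where only 2.54% of all tested genes passed as higher and 3.17% as lower. Old males were also higher than old females for all 5, beside 25.5% of all tested genes higher and 23.8% lower. The change with age differed between the sexes for Krt8, Krt18, Krt19 and Krt23, and this difference did not pass for Krt7. For that difference 19.4% of all tested genes passed as higher and 19.3% as lower.

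Krt7 and Krt8, the type II members, were the most abundant. Krt7 was at 102, 97.2, 115 and 132 CPM in young females and at 126, 149, 120 and 152 CPM in young males. In old females it was at 106, 128, 136 and 128 CPM, and in old males at 166, 176, 191 and 193 CPM. The 4 old males lay above all 12 other libraries, while the other 3 groups overlapped. Means were 181 ± 12.8 CPM in old males (SD, n = 4) against 137 ± 16.03 CPM in the young (SD, n = 4). Krt7 was higher in old than in young males by 0.41 on the log2 scale (SE 0.10, edgeR adjusted p = 0.00383) and higher in old males than in old females by 0.54 (SE 0.10, edgeR adjusted p = 0.000393).

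Krt8, the main type II partner of Krt18, was at 173, 160, 168 and 232 CPM in young females, 167, 168, 161 and 203 CPM in young males, 200, 177, 192 and 215 CPM in old females, and 271, 341, 319 and 457 CPM in old males. Every old male lay above every other library, and old male replicate 4 was the highest. The old male mean was 347 ± 78.9 CPM and the young male mean 175 ± 19.03 CPM (SD, n = 4 each). The age difference in males was 0.99 on the log2 scale (SE 0.14, edgeR adjusted p = 2.71e-05), and the difference between old males and old females was 0.82 (SE 0.14, edgeR adjusted p = 0.000148).

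**Figure D1:**
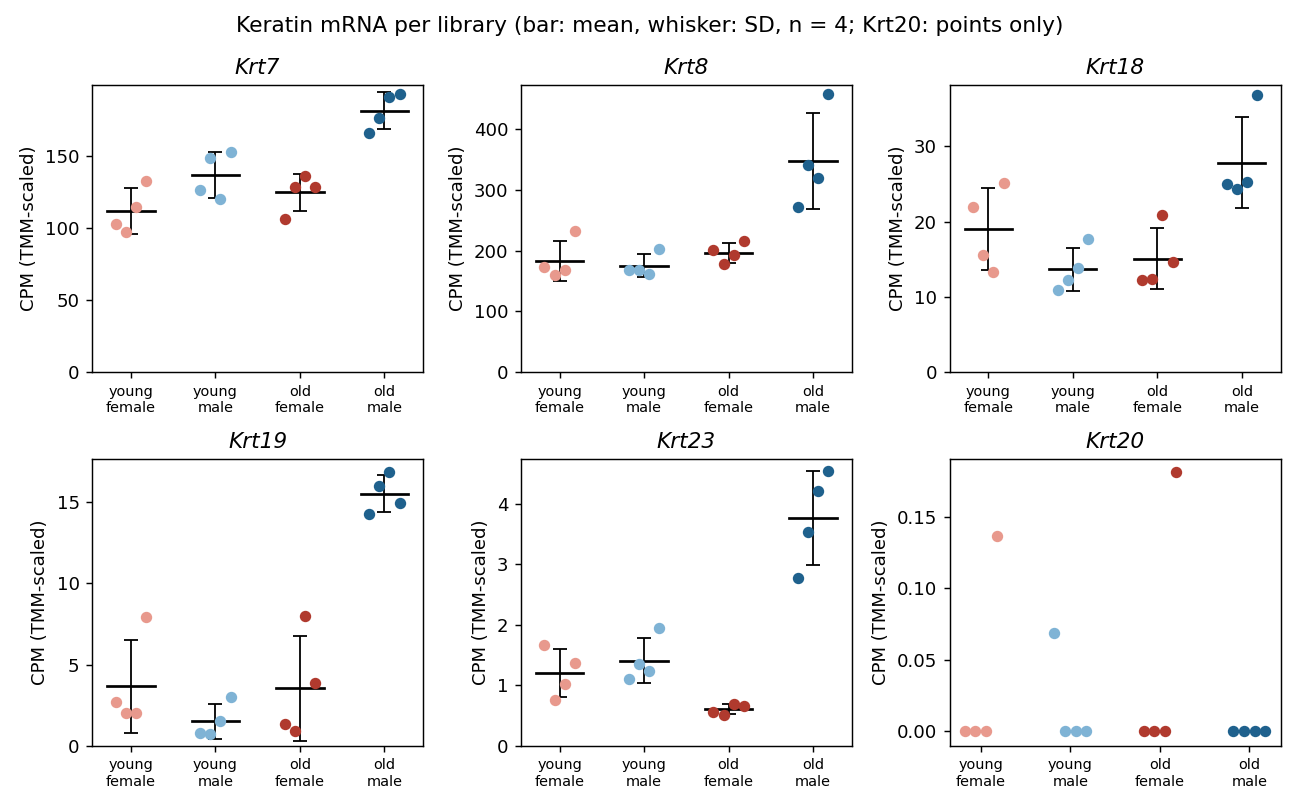
TMM-scaled CPM of the 6 keratins in each library, 1 panel per gene with its own linear axis, coloured by group. Points are libraries, bars the mean and whiskers the SD over 4 libraries, and Krt20 has points only. All 4 old males lie above all 4 young males in the Krt7, Krt8, Krt18, Krt19 and Krt23 panels, and Krt20 is at 0 in the old males.

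Krt18, the type I partner of Krt8, was at 22.0, 15.5, 13.3 and 25.1 CPM in young females, 10.9, 12.2, 13.8 and 17.6 CPM in young males, and 12.2, 12.4, 20.9 and 14.7 CPM in old females. Old males were at 25.0, 24.3, 25.2 and 36.9 CPM. The old males overlapped the young females through young female replicate 4, but lay above all young males and all old females. Krt18 was higher in old than in young males by 1.02 on the log2 scale (SE 0.22, edgeR adjusted p = 0.000947) and higher in old males than in old females by 0.88 (SE 0.21, edgeR adjusted p = 0.00273).

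Krt19, a type I keratin that lacks most of the tail domain of other keratins, had few counts outside the old males. It was at 2.68, 2.00, 2.03 and 7.90 CPM in young females, 0.757, 0.715, 1.52 and 3.01 CPM in young males, 1.34, 0.897, 8.01 and 3.87 CPM in old females, and 14.3, 15.99, 16.8 and 14.9 CPM in old males. Old males were the highest and the most even, with a coefficient of variation of 7.32% against 71.4% in young males, 78.0% in young females and 92.4% in old females. The age difference in males was 3.39 on the log2 scale (SE 0.57, edgeR adjusted p = 0.000125). Old males were above old females by 2.14 (SE 0.51, edgeR adjusted p = 0.00213). Among the DS libraries alone, where old males are 1 library assumed to vary like the other groups, the difference between old males and old females was 1.32 (edgeR adjusted p = 0.196) and did not pass. In the same libraries the age difference in males was 3.32 (edgeR adjusted p = 0.00211). The 2 old female libraries with high Krt19 carry DS and the 2 with low Krt19 carry OP.

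The Krt19 values carry a limit of counting. The table lists Krt19 at 88055841 to 88056209 and Krt14 at 88055823 to 88056209 on chromosome 10 (Rnor_6.0), so the listed interval of one lies inside that of the other. In the GRCr8 annotation Krt14, a type I keratin of the basal layer of stratified epithelia, is a separate gene with Krt9 between it and Krt19. The Krt14 row held 0.593 to 0.818 counts for each count of the Krt19 row over the 16 libraries. Both rows are therefore uncertain, and how reads were assigned to them is not given in the sources used here. The Krt14 row was higher in old than in young males by 3.29 (SE 0.58, edgeR adjusted p = 0.000183). With both rows summed, an alternative added after seeing the data, the Krt19 age difference in males was 3.35 (edgeR adjusted p = 0.000179) and the difference between old males and old females 2.04 (edgeR adjusted p = 0.00389).

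Krt23 was low in every library. It was at 1.66, 0.751, 1.02 and 1.36 CPM in young females, 1.10, 1.35, 1.23 and 1.95 CPM in young males, 0.566, 0.513, 0.690 and 0.665 CPM in old females, and 2.78, 3.54, 4.21 and 4.53 CPM in old males. Old males lay above all other libraries, and old females below all other libraries. These values rest on 8 to 24 counts per library outside the old males and on 55 to 145 counts in the old males. Krt23 was higher in old than in young males by 1.42 (SE 0.23, edgeR adjusted p = 9.25e-05). Its difference between old males and old females, 2.61 on the log2 scale or 6.09-fold (SE 0.26, edgeR adjusted p = 5.03e-07), was the largest of the 5 in that comparison.

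Krt20 was at the limit of detection. Its counts were 0, 0, 0 and 2 in young females, 1, 0, 0 and 0 in young males, 0, 0, 0 and 3 in old females, and 0 in each of the 4 old males. In old males, 0 counts over the group allow a level of up to 0.0291 CPM, the value of 3 counts, for counting error only. No group was above 3 counts in total, and no fold is given.

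All 5 tested keratins had every old male library above every young male library, which held for 23.7% of the genes tested. In this comparison 25.3% of all tested genes passed as higher and 24.6% as lower in old males. The median difference of the 5 members was 1.02, against -0.003 for all tested genes. Scaling by library totals alone instead of TMM moved the median of all genes to 0.323, and the members were then at 0.73 (Krt7), 1.32 (Krt8), 1.35 (Krt18), 3.71 (Krt19) and 1.75 (Krt23), all passing. All 5 passed in each of the 31 other settings, with the Krt7 difference between 0.35 and 0.73 and that of Krt8 between 0.83 and 1.38. The authors' deposited table of young against old males, which keeps only changes over 1 on the log2 scale in either direction, lists Krt18 at -1.02, Krt19 at -3.39, Krt23 at -1.42 and Krt14 at -3.29, with the young as numerator.

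In females no difference between old and young passed. Krt7 was at 0.16 (SE 0.10, edgeR adjusted p = 0.44), Krt8 at 0.10 (SE 0.14, edgeR adjusted p = 0.757), Krt18 at -0.34 (SE 0.22, edgeR adjusted p = 0.422) and Krt19 at -0.08 (SE 0.56, edgeR adjusted p = 0.963) on the log2 scale. At an unadjusted p under 0.05, 1 of the 5 differed (Krt23), and DESeq2 and limma-voom passed 0 of 5. The Krt19 difference had no fixed sign, since it was -0.84 without old female replicate 3, 0.65 without young female replicate 4 and 1.46 with the inner medulla covariate, passing in none of these. Krt23 was at -0.98 (SE 0.30, edgeR adjusted p = 0.0663), with every old female below every young female. It passed when young female replicate 2 was left out (-1.14, edgeR adjusted p = 0.046). Of all tested genes, 2.54% passed as higher and 3.17% as lower in old females, so few genes of any kind passed here.

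Between the sexes, young rats differed in 1 keratin. Krt7 was higher in young males than in young females by 0.29 (SE 0.10, edgeR adjusted p = 0.0431), where 16% of tested genes passed as higher and 15.7% as lower. The ranges overlapped, and the call was lost in 20 of 31 other settings, 12 of them leaving out 1 library. Krt8 (-0.07), Krt18 (-0.48), Krt19 (-1.32) and Krt23 (0.21) did not pass. Krt18 passed as lower in young males without young female replicate 3 (-0.62, edgeR adjusted p = 0.045) and with library totals alone (-0.66, edgeR adjusted p = 0.0311). The authors' deposited table lists Krt19 at -1.30 between young males and young females with a false discovery rate of 0.028, whereas the edgeR adjusted p in the fit used here was 0.128 (SE 0.64). Without young female replicate 4, which had the highest Krt19 of its group, the Krt19 difference was -0.60.

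In old rats, all 5 tested keratins passed as higher in males than in females, against 25.5% of all tested genes higher and 23.8% lower. Old females shared the low range of the young groups for Krt7 and Krt8. The authors' deposited table of old males against old females lists Krt19 at 2.12 and Krt23 at 2.59.

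The male age change less the female age change, the direct test of whether the sexes differed, was 3.47 for Krt19 (SE 0.81, edgeR adjusted p = 0.00302), 2.40 for Krt23 (SE 0.38, edgeR adjusted p = 0.000127), 1.36 for Krt18 (SE 0.31, edgeR adjusted p = 0.00243) and 0.89 for Krt8 (SE 0.20, edgeR adjusted p = 0.00229). For Krt7 it was 0.25 (SE 0.15, edgeR adjusted p = 0.197) and did not pass, except with library totals alone (0.63, edgeR adjusted p = 0.0023). In this contrast 19.4% of tested genes passed as higher and 19.3% as lower. With 1 library left out, the Krt19 value ranged from 2.74 without young female replicate 4 to 4.23 without old female replicate 3. These are the libraries with the highest Krt19 in their groups, and the value passed in both fits. It was lower, at 2.48, with the inner medulla covariate. In DS libraries alone, where old males are 1 library, it was 2.64.

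**Figure D2:**
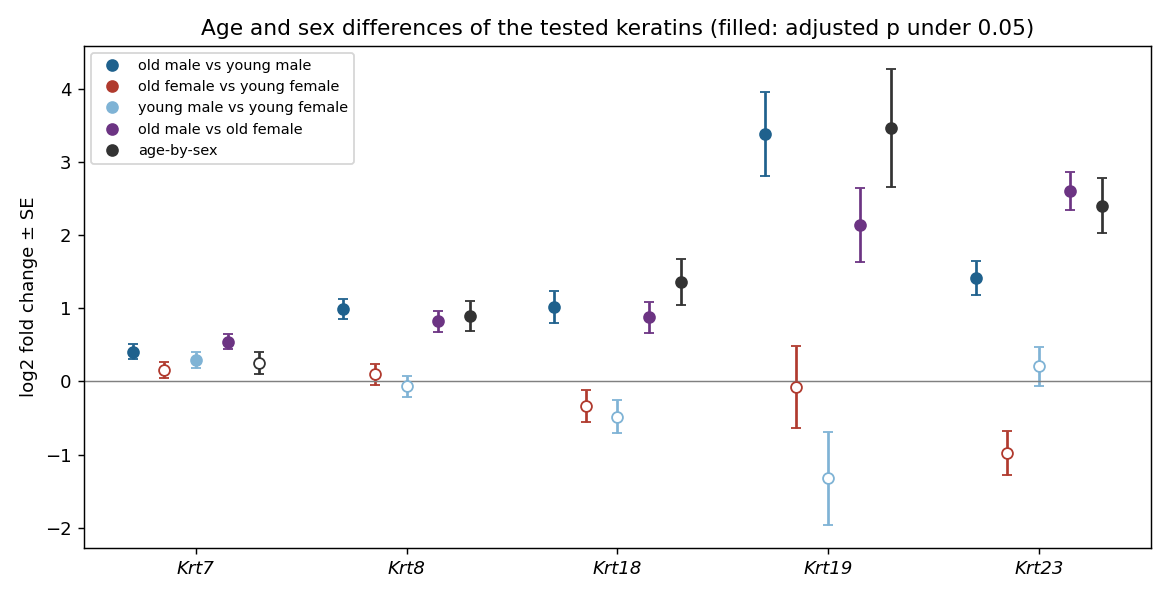
Log2 fold change of the 5 tested keratins in the 4 pairwise comparisons and in the age-by-sex contrast, with whiskers of 1 SE from edgeR's quasi-likelihood fit and filled points at an adjusted p under 0.05. Krt19 reaches 3.39 between old and young males, while the values of old against young females are open points for all 5.

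Compared per gene length on the deposited RPKM scale (counts scaled by gene length and by library total), Krt8 was the most abundant member in each library. It made up 51.0% to 63.5% of the sum of the 6. The order of the mean levels was Krt8, Krt7, Krt18, Krt19, Krt23 and Krt20 in old males, at 200, 98.6, 22.8, 12.6, 3.34 and 0 RPKM. Krt19 and Krt23 were close in young males, at 0.977 ± 0.715 and 0.996 ± 0.279 RPKM (SD, n = 4), a difference smaller than their spread. The sum of the 6 was 273 to 413 RPKM in old males and 134 to 207 RPKM in the other 12 libraries.

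Among the 6 members, the type II chains (Krt7, Krt8) exceeded the type I chains (Krt18, Krt19, Krt20, Krt23) in mRNA in every library. Other keratins, such as the type II gene Krt80, are not in these sums. The ratio of their RPKM sums was 7.14 to 8.10 in old males and 10.7 to 15.5 in young males. In females it was 7.17 to 11.8 in the young and 7.59 to 15.2 in the old. Old males lay below all young males and overlapped young and old females. The ratio of Krt8 to Krt18 was 7.63 to 9.85 in old males and 8.08 to 10.7 in young males, and these ranges overlapped. The ratio of Krt18 to Krt19 was 1.51 to 2.49 in old males and 5.92 to 17.3 in young males, without overlap. Krt19 made up 2.92% to 4.20% of the sum in old males and 0.307% to 1.12% in young males. Shares of Krt19 carry the limit of counting given for its row.

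**Figure D3:**
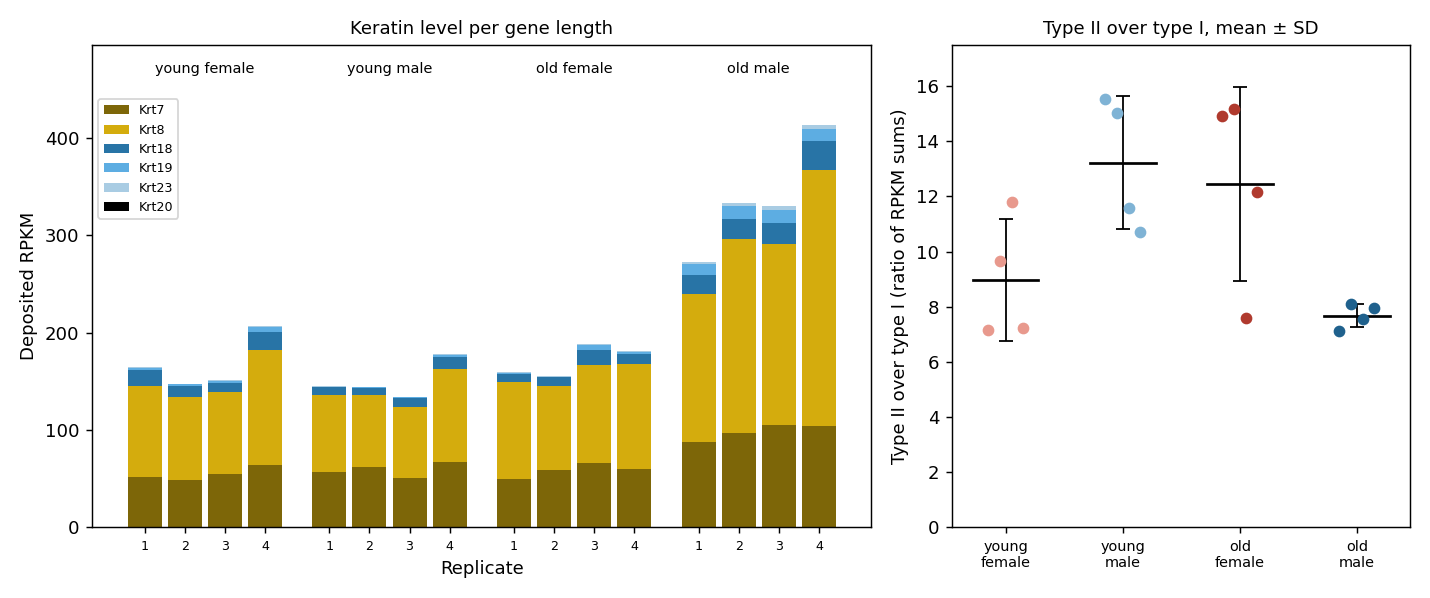
Left, deposited RPKM of the 6 keratins stacked for each of the 16 libraries, by group and replicate number. Right, the ratio of the summed type II RPKM (Krt7, Krt8) to the summed type I RPKM (Krt18, Krt19, Krt20, Krt23) in each library, with mean and SD over 4 libraries. The stacks of old males reach 273 to 413 RPKM, and their ratios lie at 7.14 to 8.10.

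Of the other 41 keratins in the table, 37 were too low to be tested, and 14 of these had 0 counts in all libraries. The 4 tested were Krt14, Krt10, Krt76 and Krt80. Krt80, a type II keratin, averaged 47.2 ± 6.55 CPM in the old males against 37.4 ± 9.22 CPM in the young (SD, n = 4) and did not pass (0.34, edgeR adjusted p = 0.068). It did pass between old and young females (0.64, SE 0.15, edgeR adjusted p = 0.0205), in which none of the 5 members did. Krt10 (-0.38, edgeR adjusted p = 0.117) and Krt76 (-0.46, edgeR adjusted p = 0.286), keratins of stratified epithelia, did not pass between old and young males. Krt17, Krt15 and Krt5, chosen after their values were seen, were untested. Krt17, a type I keratin of stressed epidermis, had 6, 38, 15 and 7 counts in old males, at most 2 in a young male, 4 in young female replicate 4, and 6 and 9 in old female replicates 3 and 4. On the CPM scale it was at 0.293 to 0.928 in old males and 0 to 0.112 in young males, while old females, at 0 to 0.544, overlapped the old males. Krt15, a basal cell keratin, had 23 counts in young female replicate 4 and 44 and 16 in old female replicates 3 and 4. It had at most 2 in an old male and at most 1 in a young male. Krt5, the basal partner of Krt14, was at the limit of detection in every group, with at most 5 counts in a library. It had 1 count over the young males and 0 over the old males.

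Krt19 was set beside markers of transitional epithelium. The summed CPM of 8 urothelium markers was 16.1, 8.17, 6.67 and 22.95 in young females, 1.65, 0.397, 2.19 and 1.87 in young males, 1.98, 0.897, 12.4 and 11.5 in old females, and 3.02, 2.15, 1.53 and 0.989 in old males. Within the old females the order of the sums was that of Krt19. Within the young females it was the same except for replicates 2 and 3, which had nearly equal Krt19 (2.00 and 2.03 CPM). Over both female groups together the orders differed in part. Young female replicate 4 and old female replicates 3 and 4, the 3 females with the highest Krt19, had high sums, but young female replicate 1 had the second highest sum of all libraries at 2.68 CPM of Krt19, and young female replicate 2 had 8.17 CPM of markers at 2.00 CPM of Krt19. The part of this tissue in the female Krt19 levels was not tested. Of 3 tested urothelium markers, 0 passed between old and young males. Their differences ran from -0.97 to 1.25 on the log2 scale, with a median of -0.19.

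**Figure D4:**
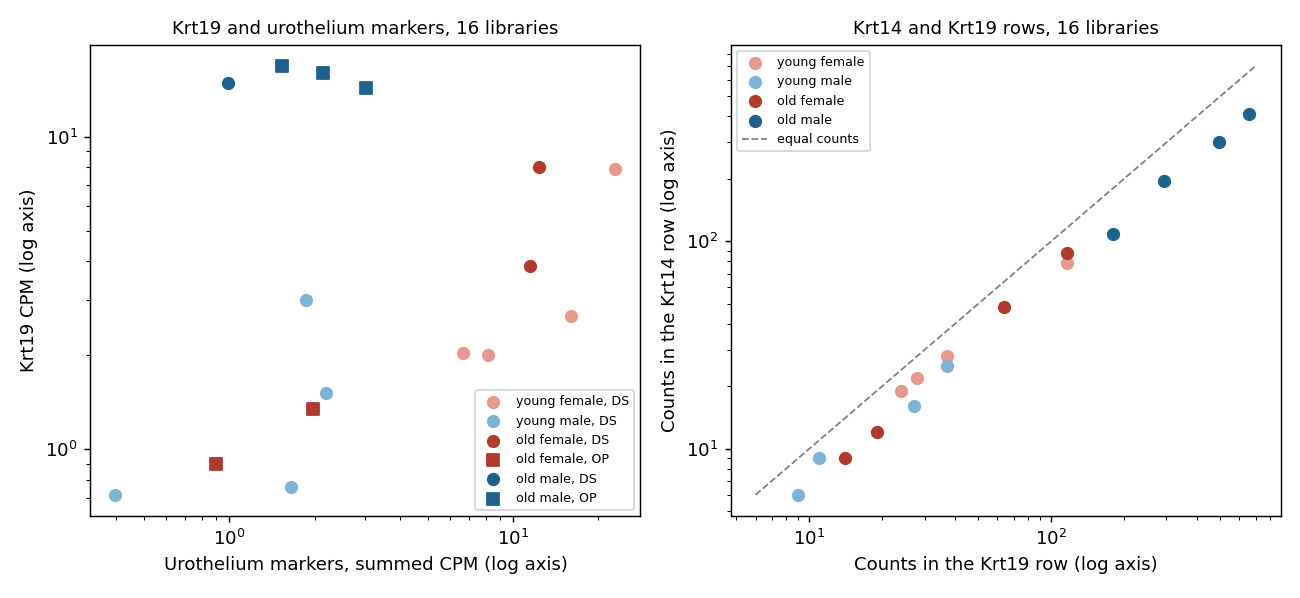
Left, Krt19 CPM against the summed CPM of 8 urothelium markers in the 16 libraries on log axes, with colour for the group and circles (DS) or squares (OP) for the identifier prefix. Right, counts of the Krt14 row against the Krt19 row on log axes with a dashed line of equal counts. Old males have the highest Krt19 at marker sums of 0.989 to 3.02 CPM, and all 16 libraries lie below the line at ratios of 0.593 to 0.818.

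Few markers of the collecting duct, where keratins are strong in healthy kidney, passed between old and young males. The list counts below stand beside 25.3% of all tested genes higher and 24.6% lower in that comparison. The principal cell list summed to 832 to 1075 CPM in old males and 854 to 1002 CPM in young males, with 1 of 7 members passing as higher, 0 as lower and a median of -0.09. Intercalated cell markers summed to 526 to 774 CPM in old and 596 to 718 CPM in young males, and 0 of 5 passed. Inner medulla markers summed to 99.3 to 231 CPM in old males and 286 to 448 CPM in young males, with 1 of 7 higher and 2 lower. With the mean log2 CPM of the inner medulla list as a covariate, the 5 keratins passed between old and young males. Krt19 was then at 3.94 (edgeR adjusted p = 8e-06). This mean was 2.32 to 3.16 in old males and 2.42 to 3.99 in young males. These ranges overlap, unlike those of the sum, so the fit does not adjust for the gap in the sum. The part of inner medulla tissue in the keratin differences was not tested. With the same covariate the Krt19 difference between young males and young females turned from -1.32 to 0.83 and passed in neither fit.

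Proximal tubule markers were at 8368 to 10055 CPM in old and 13997 to 16106 CPM in young males in sum, with 5 of 8 lower and 2 higher. Slc34a1, a phosphate transporter, averaged 1692 ± 130 CPM in the old males against 3137 ± 312 CPM in the young, and Lrp2, the megalin receptor of the brush border, 1583 ± 175 CPM against 2831 ± 43.0 CPM (SD, n = 4 each). The 2 that passed as higher, named after their values were seen, were Slc5a12, a lactate transporter (2.62, SE 0.44, edgeR adjusted p = 0.00012), and Slc5a2, the glucose transporter SGLT2 (1.52, SE 0.36, edgeR adjusted p = 0.00215). Thick ascending limb markers passed as lower for 1 of 5, and their sum was 1446 to 5844 CPM in old males, lowest in 1 library, against 5425 to 6000 CPM in the young. Distal convoluted tubule markers passed for 0 of 3. Podocyte markers passed as lower for 3 of 5. All 3 parietal epithelium markers passed as higher, with a median of 1.46 and a sum of 55.3 to 85.7 CPM in old against 25.3 to 33.1 CPM in young males. The 1 tested mesothelium marker, Msln (mesothelin), was 2.26 higher on the log2 scale in old than in young males (SE 1.10, edgeR adjusted p = 0.0978) and did not pass, with overlapping ranges. The summed CPM of the 4 mesothelium markers in the table was 1.83 to 2.24 in old males and 0.206 to 0.812 in young males, without overlap. For the urothelium, intercalated cell, distal convoluted tubule and mesothelium lists, edgeR gave 0 genes at an unadjusted p under 0.05, and DESeq2 and limma-voom passed 0.

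Immune markers also rose in old males, and fibroblast markers were mixed. All 5 tested macrophage markers passed as higher (median 1.26, sum 421 to 722 CPM against 152 to 178 CPM in young males), as did all 5 T cell markers (median 3.04, sum 18.1 to 26.8 CPM against 2.20 to 3.17 CPM). Of the fibroblast markers, 2 of 5 passed as higher and 1 as lower, with a median of 1.45. Over all tested genes 25.3% passed as higher and 24.6% as lower. In bulk tissue, more cells of a type and more RNA per cell cannot be told apart, and bulk RNA does not show which cells held the keratin mRNA. The part of any of these cell types in the keratin differences was not tested.

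Most tubule injury genes rose in old males, as the keratins did. Of 17, 15 passed as higher and 2 as lower, with a median of 1.48, and their sum was 10756 to 19517 CPM against 1128 to 1338 CPM in young males. Lcn2, which encodes the secreted iron-trapping protein NGAL, averaged 107 ± 30.9 CPM in the old males against 3.98 ± 0.144 CPM in the young (SD, n = 4), 4.76 higher on the log2 scale (SE 0.21, edgeR adjusted p = 8.85e-10). Spp1 (osteopontin) was 5.41 higher (SE 0.32), Cd44, a receptor for hyaluronan and osteopontin, 3.10 higher (SE 0.16), and Anxa2, a membrane-binding annexin, 1.93 higher (SE 0.10). Their edgeR adjusted p-values were 7.91e-09, 3.13e-09 and 3.33e-09.

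Of 8 other intermediate filament genes tested, 5 passed as higher and 1 as lower in the old males, with a median of 0.64. Vim, which encodes vimentin, the filament of mesenchymal and dedifferentiated tubule cells, averaged 209 ± 47.3 CPM in the old males against 47.2 ± 3.99 CPM in the young (SD, n = 4), a difference of 2.15 (SE 0.15, edgeR adjusted p = 3.36e-08). Des, the desmin of muscle and of some stromal cells, was 1.11 higher (SE 0.12, edgeR adjusted p = 1.09e-06). The nuclear lamins Lmnb1 and Lmna were 1.31 higher (SE 0.18, edgeR adjusted p = 1.5e-05) and 0.39 higher (SE 0.07, edgeR adjusted p = 0.000142).

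Genes of the desmosome and the plakins, which anchor keratin filaments at junctions, were higher for 6 of 12 and lower for 3, with a median of 0.25. The shares over all tested genes were 25.3% higher and 24.6% lower. Ppl, encoding periplakin, averaged 41.6 ± 6.25 CPM in the old males against 13.7 ± 1.03 CPM in the young (SD, n = 4), 1.61 higher (SE 0.19, edgeR adjusted p = 4.42e-06). Plec, the plectin that links filaments to other parts of the cytoskeleton, was 0.87 higher (SE 0.11), and Dsg2, the desmoglein of simple epithelia, 0.78 higher (SE 0.11). Pkp4, a plakophilin-related junction protein, was 0.36 lower on the log2 scale, at -0.36 (SE 0.07), and did not pass with library totals alone. The sums of this list overlapped between old males, at 933 to 1121 CPM, and young males, at 1069 to 1144 CPM.

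Among genes for proteins that bind keratins, 4 of 9 were higher and 1 lower, with a median of 0.15, beside 25.3% and 24.6% of all tested genes. Sfn, which encodes 14-3-3 sigma, an epithelial protein that binds keratins in mouse and human cells, averaged 9.78 ± 2.02 CPM in the old males against 1.07 ± 0.509 CPM in the young (SD, n = 4), 3.15 higher (SE 0.30, edgeR adjusted p = 3.84e-07). Fbf1, a keratin-binding protein of cilia and junctions, was 0.25 higher (SE 0.07), and Fam83h, which recruits casein kinase to keratin filaments, 0.27 higher (SE 0.10). Dnajb6, a chaperone that binds Krt18, was at -0.18 (SE 0.06, edgeR adjusted p = 0.0256). With library totals alone it was at 0.14 and did not pass (edgeR adjusted p = 0.0619). The call was also lost with upper-quartile factors, with no filter and at an adjusted p under 0.01. It was lost as well without young male replicate 1, young male replicate 3 or old male replicate 4.

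Epithelial transcription factors were higher for 14 of 22 and lower for 1, with a median of 0.46. Elf3, an epithelial ETS factor, averaged 108 ± 12.6 CPM in the old males against 40.1 ± 1.36 CPM in the young (SD, n = 4), 1.43 higher (SE 0.12, edgeR adjusted p = 9e-08). Klf6 and Klf5, zinc finger factors of epithelia, were 2.06 higher (SE 0.21) and 1.81 higher (SE 0.30). Ovol1, a zinc finger repressor of epithelial cells, fell by 1.18 on the log2 scale (SE 0.12, edgeR adjusted p = 5.3e-07). Of 9 adhesion genes of simple epithelia, 3 were higher and 0 lower, with a median of 0.32. The higher count is near the 25.3% of all tested genes that passed as higher, and 24.6% passed as lower. The 3 higher genes were the tight junction genes Cldn4, 2.23 higher (SE 0.26), and Cldn7, 1.26 higher (SE 0.13), and Cdh1, encoding E-cadherin, 0.47 higher (SE 0.08).

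The genes whose pattern over the 16 libraries lay nearest to each keratin were found by the root mean square difference of centred log2 CPM, over 12255 genes (12256 for Krt23). For Krt7 these were Orai3, a calcium channel subunit (0.10), Pfn1, the actin-binding profilin (0.11), and Mid1, a microtubule-associated ubiquitin ligase (0.12). For Krt8 they were Impdh1 (0.13), RT1-A1 (0.15) and Flot2 (0.15), and for Krt18 Blnk (0.23), Rasl10a (0.23) and RT1-CE7 (0.24). RT1-A1 and RT1-CE7 belong to the rat MHC class I family, whose members are alike in sequence, so their counts are uncertain. Krt19 had the Krt14 row nearest (0.15), which shares its listed interval, and Ctse, a protease, was also among its 3 nearest (0.68). For Krt23 the nearest were Itgax, the integrin CD11c of myeloid cells (0.28), Parp14, an interferon-induced ADP-ribosyltransferase (0.34) and Cd68 (0.34). Cd68, a macrophage lysosomal protein and a member of the macrophage list, was at 11.2 ± 2.14 CPM in old males and 3.47 ± 0.675 CPM in the young males. In females it was at 2.73 ± 0.286 CPM in the young and 1.99 ± 0.254 CPM in the old (SD, n = 4 each). Cd68 was picked for its likeness to Krt23 in these same libraries, so its group levels are no separate support for a link.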

How the data were processed

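RNA from rat kidney cortex was extracted with RNeasy Micro and made into libraries with a stranded TruSeq mRNA kit, per the labels' protocols. The submitters' processing notes name Rnor_6.0 and edgeR 3.8.6. Which aligner, counter and strand setting were used is not given in the sources used here. Overlapping genes are therefore uncertain. The authors deposited raw counts per gene for 32623 genes, per the file headers, and these were used as deposited. The deposited RPKM equal each count scaled by the listed length plus 1 and by the library total (largest relative difference 7.6e-16) and served only to compare levels between genes. The authors also deposited 4 pairwise lists with log2 fold changes and FDR, an adjusted p-value, which hold only genes past a log2 fold change of 1. Listed spans are shorter than the listed gene length for 70.5% of genes.

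Counts were fitted with edgeR 4.0.16 in R 4.3.3 (quasi-likelihood test, TMM factors, filterByExpr, 1 model with a mean for each of the 4 groups). All tests were two-sided, and adjustment was by Benjamini-Hochberg over 14390 genes, with 18233 genes not tested. SE were derived from the F statistic. Chromosome Y genes Kdm5d and Eif2s3y had 0 counts in all female libraries and at least 324 and 967 in males. No libraries of a group agreed within sampling noise (chi-square per degree of freedom 6.28 to 49.5). Intervals and floors cover counting error only. The fit was tested only on data simulated with the same spread between libraries, beyond counting error, for every gene. Krt19 varied more than that outside the old males, so the simulation does not cover it.

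The members and the gene lists were chosen with earlier results of these data known, so no list count is independent support. Genes named were the members, other keratins that passed in old against young males, up to 4 of each pathway list by smallest p in that comparison, the first 2 markers of each cell type list (Slc34a1 and Lrp2, for example), and the 3 nearest by pattern among genes with a mean of at least 2 CPM. One gene that this rule names is not reported here. Outside this rule, Krt80, Krt10, Krt76, Krt17, Krt15, Krt5, Slc5a12 and Slc5a2 were named after their values were seen. Log2 CPM used a prior count of 2. Alternatives were other scaling factors, filters, thresholds, DESeq2 1.42.0, limma-voom (limma 3.58.1), only the groups compared, the replicate block, the identifier prefix, marker covariates and each library left out.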

Additional observations from a re-analysis of the deposited data

Results flagged for a closer look

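Krt8 in young male replicate 4 (203 CPM), Krt18 in old male replicate 4 (36.9 CPM) and Krt19 in young female replicate 4 (7.90 CPM) each lay far above the other 3 libraries of their group. Krt20 stood out in young female replicate 4 (0.136 CPM), young male replicate 1 (0.0688 CPM) and old female replicate 4 (0.181 CPM) only because those were the libraries with any count in their groups. These are 6 of 24 combinations of a member and a group. Chance gives such a library in about 1 in 20 for normally distributed values. A group with counts in only 1 library is always flagged, and a group without counts never is. The 6 of 24 therefore cannot be set against that share.

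The age change in males differed from that in females, by the age-by-sex contrast of the edgeR fit, for Krt8 (0.89 on the log2 scale), Krt18 (1.36), Krt19 (3.47) and Krt23 (2.40), and for the Krt14 row (3.34), whose listed interval overlaps that of Krt19.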

How the results depend on the processing

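Over 31 other settings (30 for the age-by-sex contrast), the number of members passing was 5 in each for age in males, 4 to 5 for sex in old rats and 4 to 5 for the difference of the age changes. Between young males and young females 1 member passed, but 0 passed with upper-quartile factors, no filter, CPM of at least 1 in 4 libraries, an adjusted p under 0.01, only the groups compared, DS libraries alone and the inner medulla covariate, and 0 to 1 when 1 library was left out. With library totals alone that 1 member was Krt18 (-0.66), not Krt7. Between old and young females 0 passed, and 0 to 1 when 1 library was left out. Dnajb6 turned from -0.18 to 0.14 between old and young males with library totals alone, where it did not pass. The cause of these shifts was not tested.

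Replicate numbers were not treated as pairs in the main fit. Of 24 pairs of libraries with the same number, 4 had a correlation of deviations over 0.1 (range -0.131 to 0.204). Such correlations cannot show whether samples were paired. With the replicate number as a block, 5 members passed with age in males and 0 in females, 1 with sex in the young and 5 in the old, and 4 for the difference of the age changes, the same numbers as without the block.

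Counts over all genes moved by more than 1.5 times in some settings. With library totals alone, higher and lower genes were 7849 and 1329 (from 3644 and 3545) in old against young males, 1132 and 4470 (from 2308 and 2266) in young males against young females, 6066 and 1831 (from 3664 and 3431) between the sexes in old rats, and 6677 and 898 (from 2786 and 2777) in the age-by-sex contrast. Old against young females gave 366 and 456, but 14 and 7 with the inner medulla covariate, 161 and 98 in DS libraries alone, 106 and 113 at an adjusted p under 0.01, 238 higher with only the groups compared and 299 lower with the prefix as a covariate. It gave as few as 131 and 177 when young female replicate 1 was left out. Young males against young females gave 708 and 608 with the inner medulla covariate, 1491 and 1409 at an adjusted p under 0.01, and 1465 lower with the principal cell covariate. In DS libraries alone, old males against old females gave 2171 and 2152, and the age-by-sex contrast gave 1848 higher. At an adjusted p under 0.01 that contrast gave 1766 lower.

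Krt20 is limited by depth, and Krt19 and Krt23 outside the old males rest on few counts.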
